A study of Mus musculus with 21 samples.

Results

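Transcripts of 10 components of the interleukin-6 (IL-6), interleukin-1 (IL-1) and tumour necrosis factor (TNF) pathways were measured in mouse liver after titanium dioxide nanoparticles were placed in the airways. The set held the receptor genes Il6ra, Il6st, Osmr, Il1r1, Il1rap and Tnfrsf1a, the transcription factor genes Stat3, Cebpb and Cebpd, and the feedback inhibitor gene Socs3. The members were chosen for their role in the acute phase response of hepatocytes, and their probes were found by the RefSeq accession that the array files give for each probe. All 10 genes were on the array, with 14 probes, and all 10 were among the 17624 features tested, of which 11239 were named genes. The study compared female C57BL/6 mice given 162 µg nano-TiO2 into the trachea once with mice given the vehicle alone, and it took livers 1 day or 28 days later. Either was given in 40 µl of 0.9% NaCl with 10% cell-free lung lavage fluid from untreated mice, so the controls too had anaesthesia, instillation and lavage fluid. The mice were 5 to 7 weeks old when bought and were kept for a further 1 to 3 weeks before the experiment. Controls numbered 5 at day 1 and 4 at day 28, and TiO2 mice 6 at either time, each mouse on an array of its own. Values are log2 ratios of the liver RNA of 1 mouse, in the red dye, to a universal mouse reference RNA made from 11 cell lines, in the green dye. The ratios were normalized within each array, so a level of 0 means the usual ratio of that array's probes at that brightness. It does not mean equal signal in liver and reference. Il6st, with levels near 0, had a median log2 signal of 8.37 in liver and 10.15 in the reference. Levels of different genes are not set against each other.

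IL-6 binds its receptor, encoded by Il6ra, and this pair engages the signalling subunit gp130, encoded by Il6st, which activates Janus kinases and the transcription factor STAT3. IL-1 and TNF act through their own receptors on NF-kB and MAP kinases, and the factors C/EBPβ and C/EBPδ join STAT3 and NF-kB on the promoters of acute phase genes such as serum amyloid A. STAT3 itself is regulated largely by phosphorylation, and SOCS3, whose gene is a STAT3 target, shuts the gp130 signal off again, so transcript levels of these components report only part of the activity of the pathway.

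The 11 hepatocyte markers on the array were well above background on every array, whereas of 11 lung epithelial markers 2 to 9 were. Across the 21 arrays Ager was above background on 0, Sftpb and Sftpc on 2, Sftpa1 on 4, Scgb3a1 on 7 and Aqp5 on 9, while Napsa was on 13, Slc34a2 on 16, Scgb1a1 on 17, Lamp3 on 20 and Sftpd on 21. The labelled source is liver, while the labelled RNA protocol speaks of lung. The arrays were scanned on 3 days, each of which held all 4 groups, and scan day accounted for 91.7% of the first principal component and the groups for 1.5%. In the liver channel an array had 12985 to 26616 probes that the scanner software called well above background. Control day 1 replicate 2 had the most, and it was the highest of the 5 controls for 7 of the 10 genes and the lowest for 1. It was scanned on scan day 2, as was TiO2 day 1 replicate 3, which had 25251 such probes. Control day 1 replicate 1 was the highest of the 5 controls for 2 of the 10 genes and the lowest for 5. Values without replicate 2 are given for Il1r1, Il1rap, Cebpb, Stat3 and Socs3.

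None of the 10 genes passed the test in any comparison between groups, and no other feature did in the comparisons of TiO2 with control. In limma with Benjamini-Hochberg adjustment over all features the adjusted p was 1 for each of the 10 genes in each of 5 comparisons. At day 1, 0 of 10 genes were called against 0% of all features, and 1 of 10, Cebpb, had an unadjusted p under 0.05 against 1.73% of all features. At day 28, 0 of 10 were called against 0%, and 0 of 10 had an unadjusted p under 0.05 against 0.931%. The difference between the TiO2 effects at the 2 days likewise gave 0 of 10 called against 0%, and 0 of 10 at an unadjusted p under 0.05 against 0.755%. Between the control groups, day 28 against day 1, 0 of 10 were called against 0%, and 2 of 10, Cebpb and Il1rap, had an unadjusted p under 0.05 against 3.01%. Between the TiO2 groups, 0 of 10 were called against 0.034% (6 features, all lower at day 28), and 0 of 10 had an unadjusted p under 0.05 against 3.77%. Of 38 alternative settings, 0 called any of the 10 genes, while the number of all features called at day 1 ran from 0 to 3, with 3 where slide was a random block.

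Nor did the ranges of 2 groups separate for any of the 10 genes. The count was 0 of 10 at day 1 against 0.108% of all features, 0 of 10 at day 28 against 0.278%, 0 of 10 between the control groups against 0.675% and 0 of 10 between the TiO2 groups against 0.363%. The median difference over the 10 genes, TiO2 minus control, was -0.0064 at day 1 and 0.052 at day 28, beside -0.0062 and 0.0036 over all features. At day 1, 7 of the 10 genes lay lower with TiO2, and at day 28, 7 of 10 lay higher. Both counts hold differences close to 0. Across the 10 genes the day 1 differences ran from -0.27 for Il1rap to 0.72 for Cebpb, and the day 28 differences from -0.055 for Il1rap to 0.16 for Cebpb. These are bulk livers, in which fewer cells of a type and less RNA per cell cannot be told apart. Markers of sinusoidal endothelium lay lower with TiO2 at day 1 for 8 of 8 genes (median -0.12) and higher at day 28 for 8 of 8 (median 0.20), with 0 at an unadjusted p under 0.05 on either day. At day 1 hepatocyte markers also lay lower for 8 of 11 (median -0.14) and stellate cell markers for 6 of 7 (median -0.14). Kupffer cell and macrophage markers lay higher for 7 of 8. At day 28 stellate cell markers lay higher for 5 of 7 (median 0.060) and hepatocyte markers for 5 of 11 (median -0.011). The part of these markers in the differences of the 10 genes was not tested.

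**Figure D1:**
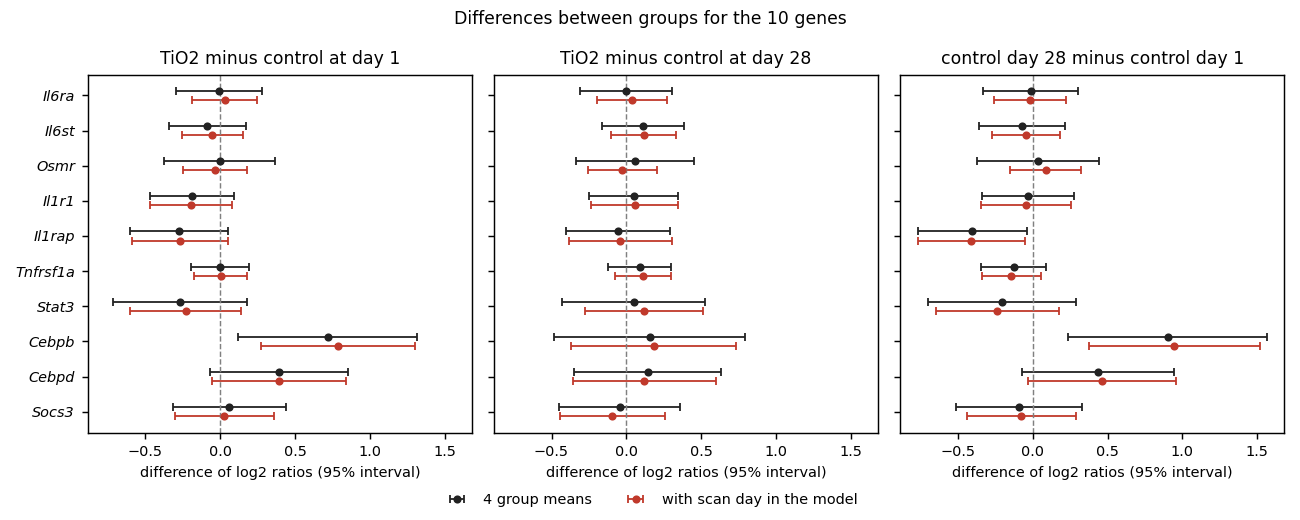
Differences of log2 ratios with 95% intervals for the 10 genes in 3 comparisons, from the model of 4 group means (black) and with scan day added to that model (red); the dashed line is no difference. At day 1 only the interval of Cebpb leaves out 0, at day 28 none does, and between the controls those of Cebpb and Il1rap do.

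Among the receptors of the IL-6 family, Il6ra encodes the chain that binds IL-6. At day 1 its level was 0.20 ± 0.29 (SD, n = 5) without and 0.19 ± 0.26 (n = 6) with TiO2, and 0.18 ± 0.24 (n = 4) and 0.18 ± 0.10 (n = 6) at day 28. The differences were -0.0099 (95% interval -0.30 to 0.28) at day 1 and -0.0035 (-0.31 to 0.30) at day 28. Its probe was a dim one, well above background in the liver channel on 16 of 21 arrays, and the 4 group means lay within a small part of the spread between mice. A second Il6ra probe, above background on 13 arrays, stood at 0.096 ± 0.18 in controls and 0.22 ± 0.08 with TiO2 at day 1.

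Il6st encodes gp130, the signalling subunit shared by IL-6, oncostatin M, LIF and related cytokines. Its level was 0.19 ± 0.27 (n = 5) in controls and 0.099 ± 0.13 (n = 6) with TiO2 at day 1, and 0.11 ± 0.28 (n = 4) and 0.22 ± 0.11 (n = 6) at day 28. The difference was -0.087 ± 0.12 (SE) at day 1 and 0.11 ± 0.13 at day 28. TiO2 mice thus lay within the range of the controls on both days. Osmr encodes the partner of gp130 in the oncostatin M receptor, and its RNA was scarcer in liver than in the reference on all 21 arrays. Its level was -2.82 ± 0.24 (n = 5) and -2.82 ± 0.35 (n = 6) at day 1, and -2.78 ± 0.41 (n = 4) and -2.72 ± 0.23 (n = 6) at day 28, in controls and TiO2 mice in that order. Scan day, not group, went with most of the spread of Osmr: 72.3% of its variance lay between scan days and 2.02% between groups, with a mean of -3.09 on scan day 2 against -2.60 and -2.59 on the others. For Il6ra and Il6st the share between scan days was 50.3% and 45.2%.

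Il1r1, the signalling receptor for IL-1, stood at 0.36, 0.86, 0.27, 0.20 and 0.03 in the 5 day 1 controls. The 6 TiO2 mice of day 1 ran from 0.051 to 0.28 with a median of 0.14. Every one of these 6 lay below the control mean of 0.34, but within the range of the controls, whose highest value belonged to control day 1 replicate 2. The difference was -0.19 ± 0.13 (SE, 95% interval -0.47 to 0.089), with an unadjusted p = 0.173, and -0.060 without that mouse. At day 28 the controls stood at 0.43, 0.21, 0.14 and 0.47 and the TiO2 mice between 0.011 and 0.79 with a median of 0.35. There the TiO2 mice covered the whole control range, and the difference was 0.048 ± 0.14.

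Il1rap encodes the accessory chain without which the IL-1 receptor does not signal, and its signal was far higher in liver than in the reference, which was itself above background on 18 of 21 arrays. The day 1 controls stood at 4.99, 4.06, 4.98, 4.91 and 4.80, so 4 lay close together and replicate 2 far below them. The TiO2 mice of day 1 ran from 4.07 to 4.87 with a median of 4.50, which spans from just above the lowest control to within the other 4. The controls of day 28 stood at 4.12, 4.49, 4.59 and 4.18, and the TiO2 mice of day 28 ran from 4.05 to 4.39 with a median of 4.35. In the order of their means the groups were control day 1 at 4.75 ± 0.39, TiO2 day 1 at 4.48 ± 0.27, control day 28 at 4.35 ± 0.23 and TiO2 day 28 at 4.29 ± 0.13, and each overlapped the next.

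For Il1rap the difference, TiO2 minus control, was -0.27 ± 0.16 (SE) at day 1 where 1 TiO2 mouse of 6 exceeded the control mean (unadjusted p = 0.0966, adjusted p = 1 in limma). Without control day 1 replicate 2 it was -0.45 ± 0.13 (unadjusted p = 0.00285, adjusted p = 1). Within scan days 1, 2 and 3 it was -0.53, 0.19 and -0.59, and scan day 2 is the day of that control. Such values rest on 1 or 2 mice per group, with a single day 1 control on scan day 1. The controls of day 28 lay lower than those of day 1 by a difference of -0.40 ± 0.17 (unadjusted p = 0.031, adjusted p = 1), and 0 of 4 lay above the day 1 control mean. Without control day 1 replicate 2 this was -0.57 ± 0.14 (unadjusted p = 0.0007, adjusted p = 0.69). The scanner software's own ratios gave 0.015 for the same comparison and 0.017 for TiO2 at day 1, and normexp on all spots gave -1.40 ± 0.77 for the controls. At day 28 the TiO2 difference was -0.055 ± 0.17. The second probe annotated to Il1rap, which carries the accession of another transcript, was above background on 0 of 21 arrays in either channel.

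Tnfrsf1a, the widely expressed TNF receptor that carries a death domain, showed the narrowest intervals of the set. Its level was 0.22 ± 0.18 (n = 5) in controls and 0.22 ± 0.09 (n = 6) with TiO2 at day 1, and 0.099 ± 0.12 (n = 4) and 0.19 ± 0.14 (n = 6) at day 28. The difference was -0.0013 at day 1 (95% interval -0.20 to 0.19) and 0.088 at day 28 (-0.12 to 0.30). The TiO2 mice of day 1 all lay within the range of the controls, whose highest value, 0.52, belonged to control day 1 replicate 2. The next control stood at 0.25, below the highest TiO2 mice at 0.35 and 0.27.

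**Figure D2:**
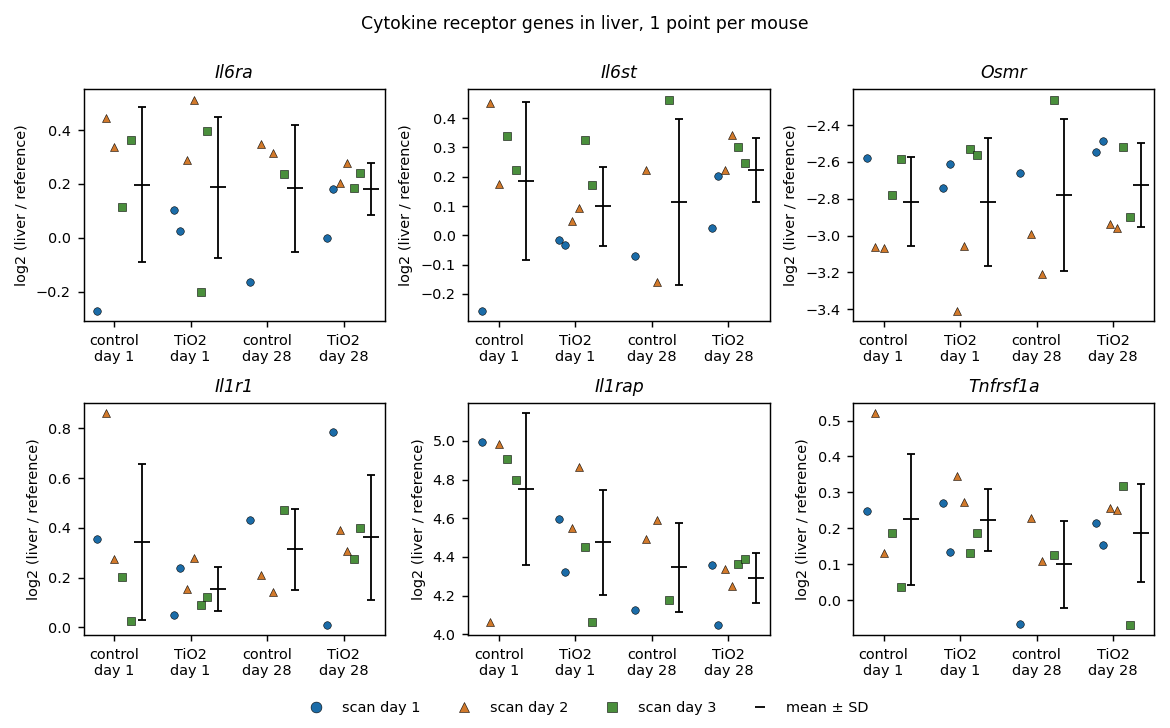
Log2 ratios of liver to reference RNA for the 6 receptor genes, 1 point per mouse in 4 groups, with symbols for the scan day and bars for the mean ± SD of each group; each panel has its own scale. The groups overlap in every panel, Osmr separates by scan day, and the lowest Il1rap value of the day 1 controls, at 4.06, lies apart from the other 4.

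Stat3 encodes the factor that carries the gp130 signal to the nucleus. Its level at day 1 was 0.52 ± 0.54 (n = 5) in controls and 0.25 ± 0.27 (n = 6) with TiO2. Control day 1 replicate 2 stood at 1.46 and the other 4 controls between 0.19 and 0.52. The difference was -0.27 ± 0.21 (SE), and -0.031 without that mouse. At day 28 the levels were 0.31 ± 0.29 (n = 4) and 0.36 ± 0.37 (n = 6), a difference of 0.048 ± 0.23. The 95% interval of the day 1 difference ran from -0.71 to 0.18, so no difference in Stat3 transcript was detectable with these numbers of mice.

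Cebpb, the gene of C/EBPβ, had the largest differences of the set. The day 1 controls stood at -1.38, 0.69, -0.63, 0.55 and -0.38, with 3 below every TiO2 mouse of that day and 2 among them. The 6 TiO2 mice of day 1 ran from 0.041 to 0.86 with a median of 0.50, and all 6 lay above the control mean of -0.23. The controls of day 28 stood at 0.13, 0.85, 1.16 and 0.53, and the TiO2 mice of day 28 ran from 0.33 to 1.10 with a median of 0.87. In the order of their means the groups were control day 1 at -0.23 ± 0.86, TiO2 day 1 at 0.48 ± 0.35, control day 28 at 0.67 ± 0.44 and TiO2 day 28 at 0.83 ± 0.29. The day 1 controls had the lowest mean and the widest spread, and each group overlapped the next.

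At day 1 the Cebpb difference, TiO2 minus control, was 0.72 ± 0.29 (SE, 95% interval 0.12 to 1.32), which is 1.64-fold, with an unadjusted p = 0.0213 and an adjusted p = 1 in limma. The control groups differed by more: day 28 minus day 1 was 0.90 ± 0.32 (95% interval 0.24 to 1.56), with 4 of 4 day 28 controls above the day 1 control mean, an unadjusted p = 0.0101 and an adjusted p = 1. Both comparisons use the same 5 day 1 controls, so these differences are not independent. At day 28 the TiO2 difference was 0.16 ± 0.31, and between the TiO2 groups it was 0.34 ± 0.27. The TiO2 effect at day 28 minus that at day 1 was -0.56 ± 0.42 (unadjusted p = 0.197), so the effects of the 2 days were not shown to differ.

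The day 1 difference of Cebpb rested on the low controls. Without control day 1 replicate 1, at -1.38, it was 0.43 ± 0.25 (unadjusted p = 0.106 in limma), and without replicate 3 it was 0.62 ± 0.31 (unadjusted p = 0.0592). Without replicate 2, the array with the most liver probes above background, it was 0.95 ± 0.28 (unadjusted p = 0.00274). Within scan days 1, 2 and 3 it was 1.50, 0.47 and 0.75, where the first rests on control day 1 replicate 1 as the only control, and with scan day in the model it was 0.79 ± 0.25 (unadjusted p = 0.00451, adjusted p = 0.992). A second Cebpb probe, above background on all 21 arrays, gave smaller differences, 0.30 ± 0.22 at day 1 and 0.42 ± 0.24 between the controls, and neither had an unadjusted p under 0.05.

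The probes of Cebpb disagreed on control day 1 replicate 1. On the second probe the day 1 controls stood at 0.70, 0.98, -0.27, 0.62 and -0.30, so replicate 1, the lowest control on the tested probe at -1.38, was the second highest here. The TiO2 mice of day 1 ran from 0.43 to 0.99 on it, and 5 of 6 lay within the range of the day 1 controls. Within scan days 1, 2 and 3 the second probe gave -0.24, 0.43 and 0.52, so on scan day 1 its sign was opposite to that of the tested probe. The low value of replicate 1 was thus seen on 1 of 2 probes, and 2 controls, replicates 3 and 5, were low on both.

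**Figure D3:**
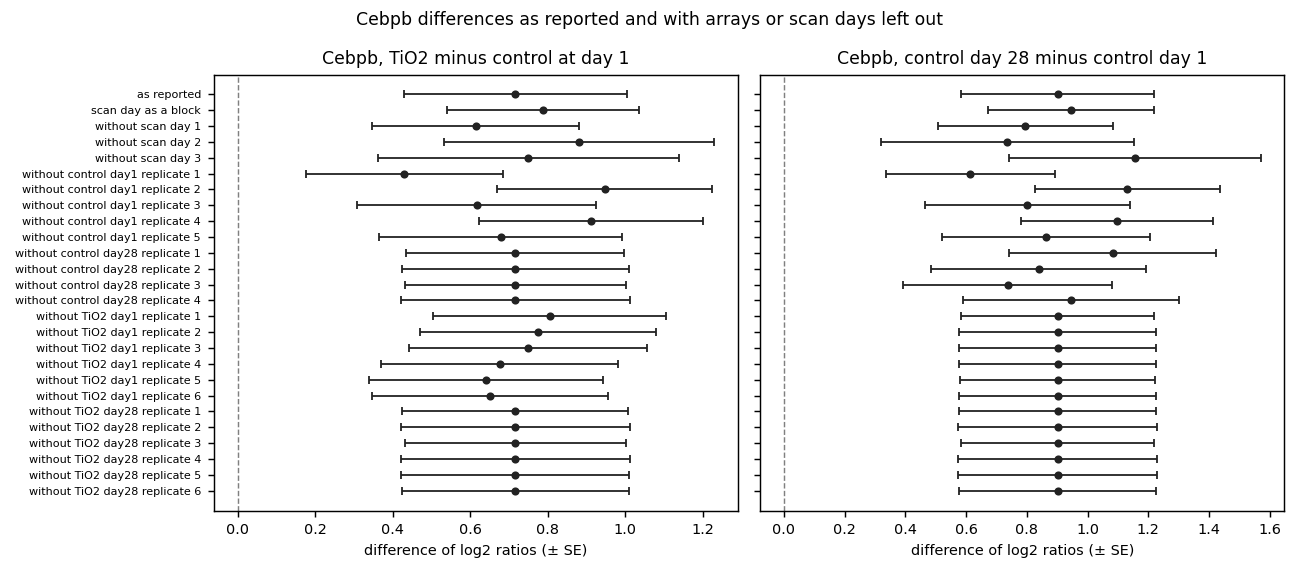
Cebpb differences of log2 ratios ± SE for TiO2 minus control at day 1 (left) and for the day 28 minus the day 1 controls (right), as reported, with scan day in the model, and with each scan day or array left out. Every difference is above 0, and at day 1 the smallest, 0.43, is the one without control day 1 replicate 1.

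Cebpd, the gene of C/EBPδ, was scarcer in liver than in the reference on every array and varied in much the same mice as Cebpb. The day 1 controls stood at -2.87, -2.28, -2.86, -2.07 and -2.55. The TiO2 mice of day 1 ran from -2.66 to -1.88 with a median of -2.05, 5 of 6 above the control mean of -2.53 and 3 of 6 above every control. The controls of day 28 stood at -1.97, -1.92, -2.04 and -2.43, all above the day 1 control mean, and the TiO2 mice of day 28 ran from -2.88 to -1.19 with a median of -1.90. The range of this last group took in every other mouse.

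For Cebpd the difference, TiO2 minus control, was 0.39 ± 0.22 (SE, 95% interval -0.068 to 0.85) at day 1, with an unadjusted p = 0.0909, and 0.14 ± 0.24 at day 28. Between the controls it was 0.44 ± 0.25 (unadjusted p = 0.0895). Within scan days 1, 2 and 3 the day 1 difference was 0.40, 0.55 and 0.40, on 1 or 2 mice per group. The other comparisons changed sign between scan days. The day 28 difference was 0.43, -0.50 and 0.61. Between the controls it was 0.89, 0.59 and -0.11, and between the TiO2 groups 0.92, -0.45 and 0.097. The signs were those of Cebpb in all 5 comparisons, but none of the 5 had an unadjusted p under 0.05.

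**Figure D4:**
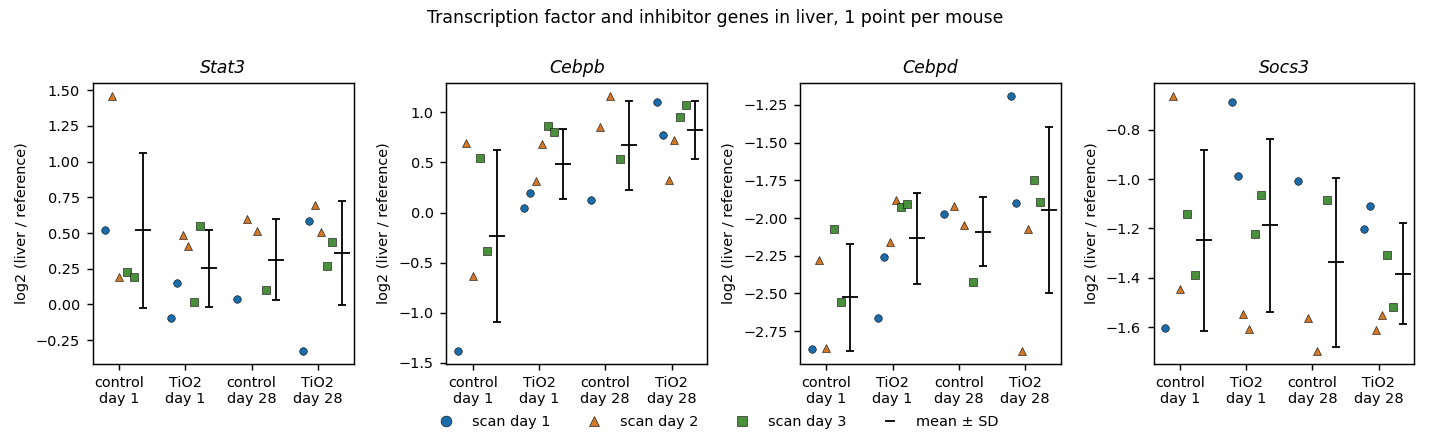
Log2 ratios of liver to reference RNA for Stat3, Cebpb, Cebpd and Socs3, 1 point per mouse in 4 groups, with symbols for the scan day and bars for the mean ± SD of each group; each panel has its own scale. The day 1 controls reach down to -1.38 for Cebpb, the lowest value of all 21 mice, and up to 1.46 for Stat3, the highest.

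Because Cebpb differed most, the 250 bases before its start are shown, at chr2:167688665-167688914 on the plus strand of GRCm38.p6, from RefSeq's promoter sequences, with capitals for the half-site of a cyclic AMP response element. Such elements are bound by CREB, a known regulator of this gene.
Cebpb: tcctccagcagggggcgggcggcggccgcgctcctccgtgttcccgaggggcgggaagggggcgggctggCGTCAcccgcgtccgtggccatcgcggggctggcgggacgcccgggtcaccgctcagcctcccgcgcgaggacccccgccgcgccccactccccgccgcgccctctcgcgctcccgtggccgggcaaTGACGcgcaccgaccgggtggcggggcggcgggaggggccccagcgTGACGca
The half-site, TGACG on either strand, occurred 3 times, at 180 to 176, 53 to 49 and 7 to 3 bases before the start, the first on the opposite strand. It was present in 17.8% of the 32851 windows of this length in the table. The letters searched for STAT (TTCNNNGAA), C/EBP (TTNNGNAA) and NF-kB (GGGNNTTTC) were not in this window, which says nothing of these factors at the gene. A window was found for 9 of the 10 genes. For Il1r1 there were 2, and the windows of Il1r1, Stat3, Socs3, Osmr and Il1rap belong to starts that lie inside the gene as RefSeq's gene table spans it. The STAT letters occurred in the window of Tnfrsf1a, as TTCCGTGAA at 244 to 236 bases before its start, and in that of Socs3, as TTCTTAGAA at 154 to 146 bases before this inner start, against 7.02% of all windows. The C/EBP letters occurred in windows of Il1r1, Il6ra and Stat3, against 36.8% of all windows, and the NF-kB letters in none, against 3.72%. Half-sites also occurred in windows of Il1r1 and Il6ra. The motifs were searched on both strands, and no match overlapped a match of another motif.

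Socs3 encodes the inhibitor that STAT3 induces and that binds gp130, and its transcript is a common readout of STAT3 activity in liver. Its level at day 1 was -1.25 ± 0.37 (n = 5) in controls, from -1.60 to -0.66, and -1.19 ± 0.35 (n = 6) with TiO2, from -1.61 to -0.69. At day 28 it was -1.34 ± 0.34 (n = 4) and -1.38 ± 0.21 (n = 6). The groups lay on top of each other on both days, with differences of 0.062 ± 0.18 (95% interval -0.32 to 0.44) and -0.046 ± 0.19 (-0.45 to 0.36). Without control day 1 replicate 2, the highest control, the day 1 difference of Socs3 was 0.21 ± 0.18. Within scan days 1, 2 and 3 it was 0.76, -0.52 and 0.12, on 1 or 2 mice per group. Without scan day 1, 2 or 3 it was -0.20 ± 0.18, 0.386 ± 0.155 and 0.029 ± 0.27, so the value near 0 averaged scan days of opposite sign.

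How the 10 genes varied together was described over the 21 arrays after subtraction of each scan day's mean, with 11086 named genes compared. The arrays share the reference RNA, and the most alike genes were picked as the highest of 11086, so these values have no test. Picked in this way, unrelated genes can also reach a high r over 21 arrays. Cebpb and Cebpd had a Pearson r of 0.834, and each was among the 4 genes most like the other. The genes most like Cebpb were Tob2 (r = 0.861), Errfi1 (0.847) and Rfc1 (0.836), and those most like Cebpd were Tcim (0.845), Stk17b (0.836) and Cebpb. Errfi1 encodes a feedback inhibitor of the EGF receptor. It had differences of 0.99 ± 0.39 (SE) at day 1 and 1.18 ± 0.43 between the controls, where Cebpb had 0.72 and 0.90. Group means were not subtracted before r was taken, so genes picked for their r with Cebpb tend to share its group differences. Stat3 was most like H6pd (0.907), Osbpl9 (0.813) and Junb (0.778), an AP-1 gene induced by many cytokines, and Il1r1 stood at 0.733. Il1rap and Cebpb had an r of -0.617. The genes most like Il1rap were Car14 (0.872), Dnajc30 (0.847) and Commd2 (0.809). Without control day 1 replicate 2 the r of Stat3 was 0.844 with H6pd, 0.718 with Osbpl9, 0.711 with Junb and 0.563 with Il1r1, and that of Il1rap was 0.779 to 0.857 with its 3 genes. Without control day 1 replicate 1 the r of Cebpb was 0.803 with Cebpd and -0.465 with Il1rap. These values were added after the data were seen.

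**Figure D5:**
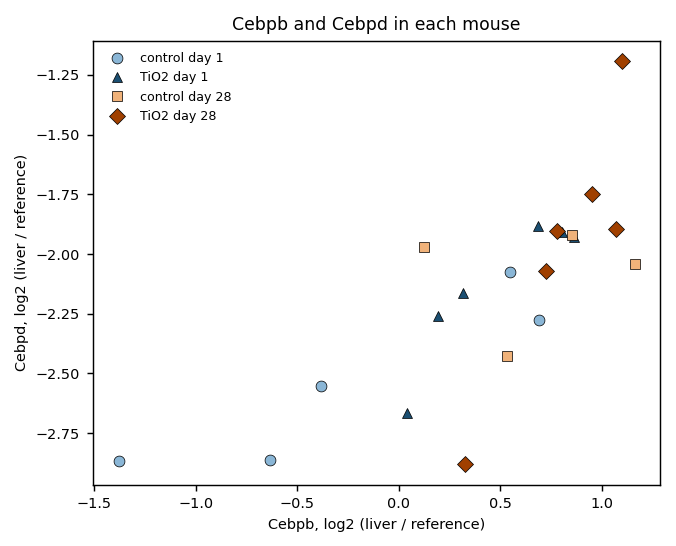
Log2 ratio of Cebpd against that of Cebpb, 1 point per mouse, with a symbol for each group. Mice low in one tended to be low in the other, and the 2 lowest Cebpb values, -1.38 and -0.63, belong to day 1 controls whose Cebpd stood at -2.87 and -2.86.

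Of the other genes the 3 most alike were Zfp101, Mettl7a1 and Fam20a for Il6ra (r = 0.695 to 0.779), Klhdc2, Hjurp and Uchl3 for Il6st (0.768 to 0.781), and Eml1, Ms4a1 and B9d1 for Osmr (0.78 to 0.848). For Il1r1 they were Eno3, Ctnnbl1 and Haus4 (0.755 to 0.773), for Tnfrsf1a Cdkn2c, Smpd3 and Wnt10a (0.759 to 0.77), and for Socs3 Lrpap1, Trim28 and Ing2 (0.779 to 0.807). None of these was one of the 10 genes, and these r too were picked as the highest of 11086.

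The rest of the pathway was read from 7 lists of 92 other genes, 80 of them measured. At day 1, 0 of the 80 passed the test, 8 had an unadjusted p under 0.05 beside 1.73% of all features, each of them higher with TiO2, and 7 of these 8 were acute phase targets. At day 28, 0 passed and 1 had an unadjusted p under 0.05 beside 0.931% of all features. The cytokines themselves were mostly out of reach: Il6 and Tnf were each well above background in liver on 4 of 21 arrays, Il1a on 1 and Lta on 0, and these were not tested. Il1b, the form of IL-1 secreted mainly by macrophages, was measured at 0.68 ± 0.47 (n = 5) in controls and 1.24 ± 0.80 (n = 6) with TiO2 at day 1. The difference was 0.57 ± 0.38 (SE), and between the controls, day 28 minus day 1, it was 0.80 ± 0.42. The 5 measured ligands included Ctf1, Clcf1 and Osm, cytokines that signal through gp130, at -0.12 ± 0.11, -0.098 ± 0.12 and -0.088 ± 0.13 at day 1. A second Osm probe gave 0.036 ± 0.08 at day 1. At day 28 Clcf1 differed by 0.21 ± 0.12 and Osm by -0.10 ± 0.14. None of the 5 had an unadjusted p under 0.05 on either day.

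Among 6 other receptors measured, Tnfrsf1b, the second TNF receptor, which leukocytes carry, differed by 0.27 ± 0.12 (SE) at day 1, and 6 of 6 TiO2 mice exceeded the control mean (unadjusted p = 0.0373, adjusted p = 1 in limma). Its second probe gave 0.098 ± 0.11 at day 1. The control groups differed by more on the tested probe: day 28 minus day 1 was 0.31 ± 0.13 for Tnfrsf1b (unadjusted p = 0.0313 in limma). Kupffer cell and macrophage markers lay higher with TiO2 at day 1 for 7 of 8 genes (median 0.096, 0 at an unadjusted p under 0.05). At day 28 they lay higher for 8 of 8 (median 0.14, 0 at an unadjusted p under 0.05), where Tnfrsf1b differed by 0.0071 ± 0.13. The part of these markers in the value of Tnfrsf1b was not tested. Lifr, the LIF receptor chain, stood at 5.35 ± 0.81 and 5.13 ± 0.68 at day 1 and differed by -0.22 ± 0.41, then by 0.52 ± 0.44 at day 28. The 3 other Lifr probes gave 0.074 to 0.16 at day 1 and -0.12 to -0.011 at day 28, opposite in sign on both days. Il1rl1, the receptor for IL-33, differed by 0.12 ± 0.37 at day 1 and Il11ra1, which binds IL-11, by 0.10 ± 0.12 at day 28, where a second Il11ra1 probe gave -0.12 ± 0.15.

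Of 7 Janus kinases, STATs and SHP2, 0 had an unadjusted p under 0.05 on either day. At day 1 Stat5b differed by 0.30 ± 0.19 (SE) and Stat5a by -0.23 ± 0.20, and at day 28 Stat5b differed by 0.050 ± 0.20, with -0.045 ± 0.10 on its second probe. Ptpn11, which encodes SHP2, differed by 0.21 ± 0.18 at day 28. Of 14 IL-1 and TNF adaptors and kinases, again 0 had an unadjusted p under 0.05. The TNF receptor adaptors Traf2 and Tradd differed by -0.18 ± 0.13 and -0.29 ± 0.40 at day 1, the IL-1 receptor kinase Irak2 by -0.13 ± 0.20, and at day 28 Traf2 by 0.15 ± 0.14 and Irak4 by -0.11 ± 0.11. A second Irak4 probe gave 0.15 ± 0.10 at day 28, the opposite sign.

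The 9 NF-kB, AP-1 and other C/EBP genes measured had 0 at an unadjusted p under 0.05 on either day. Rela, the main activating subunit of NF-kB, differed by -0.14 ± 0.12 (SE) at day 1, Junb by -0.56 ± 0.55 and Cebpg by 0.14 ± 0.15, with a second Cebpg probe of opposite sign at -0.12 ± 0.09. Cebpa, the C/EBP factor that dominates in resting hepatocytes, differed by -0.0006 at day 1 and 0.35 ± 0.26 at day 28, where its second probe gave 0.0028 ± 0.34, and Jun by 0.26 ± 0.26 at day 28. Of 13 inhibitors and feedback genes, 9 lay higher and 4 lower at day 1, and 0 had an unadjusted p under 0.05 on either day. Pias1, an inhibitor of STATs, differed by 0.18 ± 0.10 at day 1, where its second probe gave -0.077 ± 0.09, and Tnip1 and Tnfaip3, which restrain NF-kB, by 0.13 ± 0.11 and 0.16 ± 0.16. At day 28 Bcl3, an atypical IkB protein, differed by 0.43 ± 0.24 and 6 of 6 TiO2 mice exceeded the control mean, and Zfp36, which destabilises TNF mRNA, by -0.21 ± 0.27 and on its second probe by 0.048 ± 0.11.

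Of the acute phase targets of the pathway 20 of 26 measured lay higher with TiO2 at day 1, with a median of 0.23 beside -0.0064 over the 10 components, and 0 passed over all features, with 7 at an unadjusted p under 0.05 beside 1.73% of all features, each of them higher. Lcn2, which encodes lipocalin-2, differed by 1.48 ± 0.27 (SE, adjusted p = 0.284 in limma), Saa3 by 2.41 ± 0.50 (adjusted p = 0.746) and Saa1 by 1.76 ± 0.39 (adjusted p = 1), the 2 last encoding serum amyloid A proteins. Saa1 and Saa2 are near-identical, so a Saa1 probe may read both. A second Saa1 probe gave 0.95 ± 0.35. At day 28 Lcn2 differed by 0.37 ± 0.28 and Apcs, the gene of serum amyloid P, by 0.53 ± 0.18 (unadjusted p = 0.0075, adjusted p = 1). From day 1 to day 28 in TiO2 mice 24 of 26 targets lay lower (median -0.27) and 9 had an unadjusted p under 0.05 beside 3.77% of all features, each of them lower, and Lcn2 fell by 1.77 (adjusted p = 0.00616 in limma). The controls lay the same way over that interval, with 19 of 26 targets lower (median -0.18). Of the 26, 2 had an unadjusted p under 0.05 beside 3.01%, both lower, Lcn2 at -0.66 ± 0.29 and Apcs at -0.41 ± 0.19. Saa3 differed by -2.46 ± 0.47 in TiO2 mice and by -0.10 ± 0.55 in controls. The TiO2 effect at day 28 minus that at day 1 was lower for 18 of 26 targets and higher for 8. Of the 26, 0 passed and 4 had an unadjusted p under 0.05 beside 0.755% of all features, each lower. Saa3 stood at -2.35 ± 0.73, Saa1 at -1.77 ± 0.57 and Lcn2 at -1.11 ± 0.39, while Apcs stood at 0.14 ± 0.25. Between the TiO2 groups the 10 components had a median difference of 0.10, with 0 of 10 at an unadjusted p under 0.05. The lists of targets and components were chosen with earlier results of these data known, and they were not tested against each other.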

How the data were processed

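Liver RNA of 21 mice was hybridised to 2-colour Agilent arrays against a common reference, with no dye swap. The members and gene lists were chosen with earlier results of these data known. The deposited spot values used are intensity (median spot and local background brightness per channel, not normalized). The scanner's LogRatio, per the file headers, is a deposited log10 ratio of processed red over green, with 12.8 to 25.6% of ratios at exactly 0 per array. The authors' deposited table holds log2 values of unstated scale, centring and direction; its columns correlated at 0.996 to 0.997 with log2 liver over reference without background subtraction, at slopes near 1, and had medians of -0.058 to -0.011. Its centring stays unknown. The file headers name Feature Extraction 10.7.3.1 and the submitters' processing notes 9.5.3.1; the authors' tests are not given in the sources used here.

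In limma 3.58.1 (R 4.3.3), background was corrected by normexp with an offset of 50, with 72 to 324 deviant spots per array set to the median background and then left out, and ratios were normalized by loess within arrays with control spots at weight 0. Spots of a probe were averaged. The filter asked for a liver signal well above background on at least 50% of a group's arrays (21405 probes), and a gene was represented by its brightest probe. This left 17624 features, 210 of them lacking a value on some array. Accessions were named through a RefSeq table of GRCm38.p6, whereas the headers name the older build mm8. One model of 4 group means over 21 arrays was fitted, with empirical Bayes moderation and Benjamini-Hochberg adjustment at 0.05. Numbers of mice limit the precision. The model was tested on simulated data. All 10 components are named. For the 4 with the smallest p every control's value is given, with the range and median of the TiO2 mice. From each list up to 3 genes with the smallest p at day 1 and 2 at day 28 are named, and so are the 3 most alike genes per component. A gene that this rule names is not reported here. Scan days were taken from the file headers. Alternatives were other background corrections, scalings, filters, probe rules and covariates, and leaving out each array and each scan day.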

Additional observations from a re-analysis of the deposited data

Results flagged for a closer look

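Among 40 combinations of a gene and a group, 3 had a highest or lowest mouse farther from its nearest neighbour than Dixon's 95% critical value allows, where chance flags about 1 group in 20. Il1rap in control day 1 replicate 2 stood at 4.06, below the other 4 controls, which began at 4.80. Stat3 in the same mouse stood at 1.46, above the other 4, which ended at 0.52. This array also had the most liver probes above background, 26616. Its part in both values was not tested. Il6ra in TiO2 day 28 replicate 1 stood at -0.0027, below the other 5 mice, the nearest being replicate 2 at 0.18. Both were scanned on scan day 1, when the mean of Il6ra was -0.022 against 0.34 and 0.19 on the other scan days. The part of scan day in this value was not tested.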

How the results depend on the processing

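Under 38 alternatives (37 for the difference between the TiO2 effects) the number of the 10 genes called stayed 0 in each of the 5 comparisons, also without each of the 21 arrays in turn. The median over the 10 genes ran from -0.10 to 0.018 at day 1 and from -0.014 to 0.12 at day 28. The SD between replicates of 0.135 is that of the median on a single array. It is no measure of the error of a difference between groups. Of 1885 single values, 4 changed sign where the reported difference exceeded its SE. With the scanner's own LogRatio, Il1rap was 0.017 at day 1 and 0.015 between the controls. Without scan day 2, the TiO2 effect at day 28 minus that at day 1 was -0.014 for Il6st and -0.013 for Il1r1. The cause was not tested. Cebpb at day 1 ran from 0.43 to 0.95, with an unadjusted p under 0.05 in 34 of 38 alternatives and a smallest adjusted p of 0.772. Between the controls it ran from 0.61 to 1.16, with 37 of 38 and 0.443. Il1rap between the controls ran from -1.40 to 0.015, with 23 of 38. All features called between the TiO2 groups ran from 0 to 31 around the reported 6. No paired analysis was possible because replicate numbers follow the order of deposition alone; slide as a random block and scan day as a block were fitted instead, and gave Cebpb at day 1 as 0.74 and 0.79. The 4 to 6 mice per group and, for Il6ra, a signal near background limit what could be detected.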

Other observations

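A second Osmr probe was well above background in the liver channel on 2 of 21 arrays, against 21 in the reference channel, and was not tested. Its log2 ratio was 1.77 in control day 1 replicate 5 and -0.42 to -0.083 in the other 4 day 1 controls. Nor were Map3k7, the kinase TAK1 (7 of 21 arrays above background), Irak3 (2), Il1r2, Il1rl2 and Rel (0 each) and A2m (1) tested at this signal.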
